A study of Mus musculus with 56 samples.

Results

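Glucocorticoid response genes were followed in mouse liver through 9 named members, Fkbp5, Tsc22d3, Zbtb16, Nr3c1, Hsd11b1, Sgk1, Mt1, Mt2 and Dusp1, of the 25415 genes listed by the authors. The members were chosen by gene symbol, matched through the GENCODE annotation, and all 9 were measured in all 56 libraries. RNA had been sequenced from livers of C57BL/6J females at 9 weeks of age, kept on normal chow with 12 h of light and 12 h of dark. Food had been restricted for 7 days to the daytime (DRF) or to the night (NRF, the reference), and the livers came from 4 animals of each regimen at ZT0, 4, 8, 12, 16, 20 and 24 (zeitgeber time, in hours from lights on), that is 14 groups with 28 libraries for each regimen. No group carried a mutation or a drug, and no group was fed without restriction. Circulating corticosterone is not among the values analysed here.

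Glucocorticoids are steroid hormones of the adrenal gland whose blood level in rodents rises before the active phase and with anticipation of food. They bind the glucocorticoid receptor, encoded by Nr3c1, which is held in the cytosol by heat shock protein chaperones, enters the nucleus after binding and acts at DNA elements made of a pair of inverted repeats. In liver, 11β-hydroxysteroid dehydrogenase type 1, encoded by Hsd11b1, regenerates active hormone from its inert keto form. Fkbp5, which lowers the receptor's affinity for hormone, Tsc22d3, which encodes the anti-inflammatory protein GILZ, Zbtb16, a zinc finger transcription factor, the kinase gene Sgk1, the MAP kinase phosphatase gene Dusp1 and the metallothionein genes Mt1 and Mt2 are widely used as target genes. Several of them also respond to other cues: metallothioneins bind zinc and copper and are induced by these metals, and Dusp1 is an immediate early gene.

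Levels are given as scaled counts, which were obtained by inverting the deposited values to counts on the scale of each library (1 unit stood for 303.9 to 723.0 recovered counts). They carry no length correction, so they compare libraries and not genes. Library sums lay between 888237 and 1115420 scaled counts, and correlations between replicates of a group across 13756 genes lay between 0.965 and 0.990. Tests were made with limma on log2(scaled count + 1) over all 25306 genes tested, with Benjamini-Hochberg adjusted p-values called under 0.05. For each gene, the SE of a difference at a single time came from 1 spread shared by all 14 groups. It is therefore the same at each time and does not describe the spread at that time. The log2 scale understates changes of low values. Hepatocyte markers gave group sums of 106899 to 130158 scaled counts, whereas all 5 lymphocyte markers had means under 1. All 5 erythroid markers had a higher rhythm-adjusted mean under DRF, with summed levels of 678 to 1552 over the groups, and their part in the results was not tested. In bulk liver, fewer cells of a type and less RNA per cell cannot be told apart. The slope of library values on exon length varied between groups, from a mean of -0.043 log2 units per doubling of length (DRF ZT8) to 0.041 (NRF ZT24). It also differed at the same clock time, with -0.042 at NRF ZT0. With this trend removed, the calls of Mt1 and Mt2 at each time stood. Summed markers of Kupffer cells (476 to 748), sinusoidal endothelial cells (349 to 444), stellate cells (648 to 829.7) and cholangiocytes (25.4 to 33.2) varied less over the groups than those of erythroid cells, and the 3 neutrophil markers measured had means under 1.

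The members differed in how strongly they were expressed. Per kilobase of exon, the level of Mt2 was 51.6 ± 56.3 scaled counts under DRF (SD over 28 libraries) and 30.2 ± 37.4 under NRF, and that of Tsc22d3 was 50.7 ± 16.4 and 46.3 ± 20.9. Nr3c1 lay at 47.1 ± 8.43 and 44.0 ± 13.5, Dusp1 at 46.1 ± 19.7 and 40.6 ± 19.0, and Zbtb16 at 40.2 ± 29.9 and 30.4 ± 20.9 scaled counts per kilobase. Hsd11b1 (19.1 ± 2.59 and 17.3 ± 2.71) and Mt1 (18.3 ± 16.9 and 14.3 ± 15.1) were lower. Fkbp5 (4.79 ± 2.79 and 5.17 ± 3.02) and Sgk1 (5.76 ± 1.17 and 5.15 ± 1.10) were the lowest of the 9 in these units. For Nr3c1 and Dusp1 the exon length that gave whole counts was 7425 and 2697 bases, against 7684 and 3311 in the annotation, so their levels per kilobase rest on the lengths found from the values. The spread over libraries was wide for Mt1 and Mt2, whose SD was close to or above the mean in both regimens, and narrow for Hsd11b1.

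Upstream sequences are shown for 4 members because Mt1 and Mt2 moved together and because the motifs named for this pathway could be looked for in them. RefSeq promoter windows (GRCm38.p6) were given for 7 of the 9 members (not Zbtb16 or Nr3c1), with 14 windows in all, and the 250 bases before each annotated start were searched on both strands. In Mt2 (chr8:94172368-94172617, plus strand, upstream of the gene at 94172664 to 94173568), capitals mark the metal response core TGCNCNC, found 5 times, which 44.4% of all 32851 windows hold at least once. In Mt1 (chr8:94178839-94179088, plus strand, ending at the RefSeq start, with the annotated gene at 94179082 to 94180327), capitals mark the longer glucocorticoid response motif, that is the core ACANNNTGT preceded by G and any base and followed by any base and C, which 0.387% of all windows hold. The same motif is in capitals in 1 of the 6 windows of Sgk1 (chr10:21993640-21993889, plus strand, within the gene at 21882184 to 21999903). In Dusp1 (chr17:26508473-26508722, minus strand, printed along the gene at 26505590 to 26562128), capitals mark the cyclic AMP response element TGACGTCA, which 1.55% of windows hold. The core alone occurs in 5.84% of windows, and among the members in Mt1 and in 2 windows of Sgk1. The E-box CACGTG (6.02% of windows) was found in Dusp1, Fkbp5 and the Sgk1 window shown. In Fkbp5 this E-box overlaps a metal response core. The metal core also occurs 1 time in the Mt1 window, and in windows of Hsd11b1, Tsc22d3 and Sgk1 (not the Sgk1 window shown). These letters mark matches only, and binding was not measured.
Mt2: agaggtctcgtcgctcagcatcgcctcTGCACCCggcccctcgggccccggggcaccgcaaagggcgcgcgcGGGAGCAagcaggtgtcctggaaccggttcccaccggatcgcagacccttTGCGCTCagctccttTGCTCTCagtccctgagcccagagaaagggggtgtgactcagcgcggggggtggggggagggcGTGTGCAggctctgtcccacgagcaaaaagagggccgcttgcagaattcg
Mt1: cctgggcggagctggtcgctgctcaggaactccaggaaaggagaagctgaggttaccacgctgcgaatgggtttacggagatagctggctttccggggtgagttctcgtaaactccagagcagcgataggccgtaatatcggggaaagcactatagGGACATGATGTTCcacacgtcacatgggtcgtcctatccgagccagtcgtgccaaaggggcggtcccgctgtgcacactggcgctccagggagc
Sgk1: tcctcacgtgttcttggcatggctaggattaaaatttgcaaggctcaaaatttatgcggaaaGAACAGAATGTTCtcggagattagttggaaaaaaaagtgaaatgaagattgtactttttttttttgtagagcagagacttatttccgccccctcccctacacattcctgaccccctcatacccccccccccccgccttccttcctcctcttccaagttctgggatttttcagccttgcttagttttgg
Dusp1: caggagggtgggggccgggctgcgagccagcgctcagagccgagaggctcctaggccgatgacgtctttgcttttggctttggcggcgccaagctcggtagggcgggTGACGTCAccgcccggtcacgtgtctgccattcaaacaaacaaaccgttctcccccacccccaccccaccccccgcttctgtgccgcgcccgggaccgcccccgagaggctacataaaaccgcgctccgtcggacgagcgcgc

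**Figure D1:**
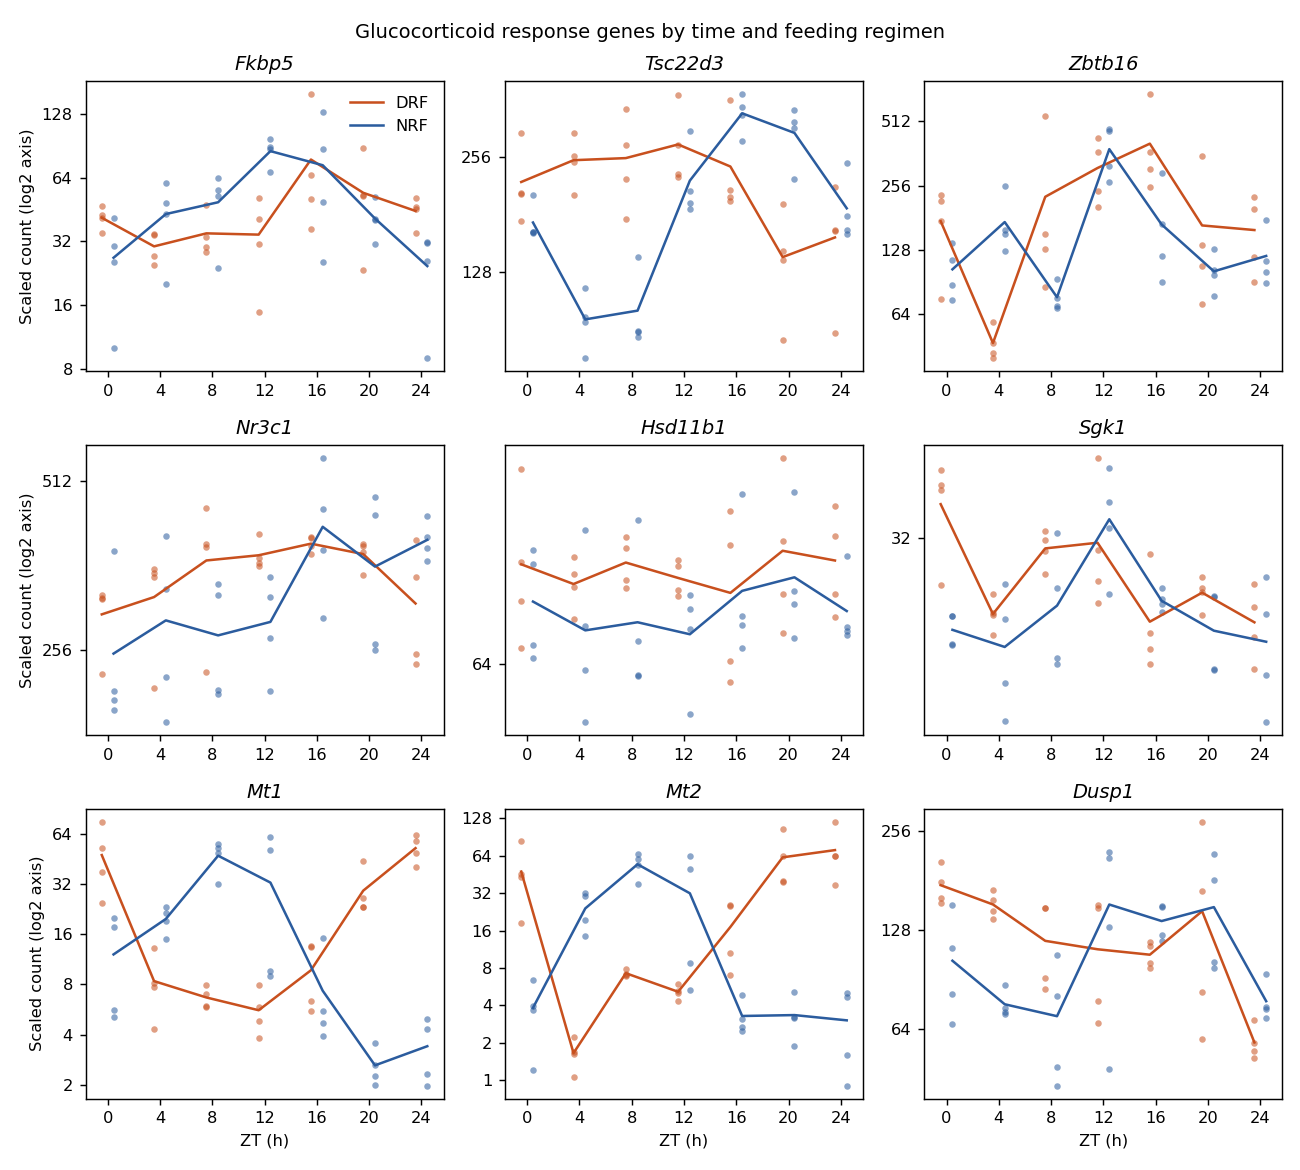
Scaled counts (vertical axis, log2) of the 9 members against ZT in hours (horizontal axis), with 1 point per liver and lines through the group means of 4 animals, DRF in orange and NRF in blue. Mt1 and Mt2 were high at ZT20 to ZT24 under DRF and at ZT8 under NRF, and Hsd11b1 stayed between 55.3 and 108 in all 56 libraries.

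Of the 9 members, the metallothionein genes had the largest differences between regimens. Mt1 (ENSMUSG00000031765, chromosome 8, plus strand) and Mt2 (ENSMUSG00000031762, its neighbour on the same strand) encode small cysteine-rich proteins that hold zinc. Under NRF, Mt1 read 48.9, 31.8, 55.7 and 52.3 scaled counts in the 4 livers at ZT8 and 2.25, 2.64, 3.57 and 1.995 at ZT20. Under DRF the order was the opposite, with 7.05, 5.84, 5.92 and 7.89 at ZT8 and 26.1, 23.3, 43.9 and 23.2 at ZT20. No liver of either regimen overlapped the other at these times. The log2 difference, DRF minus NRF, was -2.63 ± 0.44 (SE, adjusted p = 2.64e-05) at ZT8 and 3.03 ± 0.44 (SE, adjusted p = 1.60e-06) at ZT20.

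Mt1 was highest at ZT24 under DRF, with 52.4 ± 9.82 scaled counts (SD, n = 4), and lowest at ZT12, with 5.59 ± 1.74. Under NRF its highest mean was at ZT8 (47.2 ± 10.6) and its lowest at ZT20 (2.61 ± 0.690), a ratio of 18.1 against 9.36 under DRF. The NRF livers at ZT12 were split, with 60.9, 50.8, 9.57 and 8.96 scaled counts, so that 2 of them were near the ZT8 level and 2 near the ZT16 level of 7.32 ± 5.24. The ranges of the regimens were apart at 6 of the 7 times, the exception being ZT16, where the log2 difference was 0.44 ± 0.44 (SE, adjusted p = 0.570). At ZT4 the difference was the smallest of those called, -1.21 ± 0.44 (SE, adjusted p = 0.0441). Without single libraries its adjusted p ranged from 0.0280 to 0.165, and 6 of the 8 removals (DRF replicates 1, 2 and 3, NRF replicates 1, 3 and 4) ended the call. It also ended with a pseudocount of 10 (adjusted p = 0.0725), with the values as deposited (0.0615) and with a replicate block (0.0509).

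Mt2 followed Mt1, and its lowest group mean was 1.65 scaled counts under DRF (ZT4) and 3.03 under NRF (ZT24). At ZT4 the DRF livers held 1.06, 1.61, 1.69 and 2.24 scaled counts and the NRF livers 32.2, 14.5, 19.4 and 30.3, a log2 difference of -3.20 ± 0.50 (SE, adjusted p = 4.10e-06). At ZT20 the values were 64.0, 39.7, 105 and 39.9 under DRF and 3.19, 3.18, 5.08 and 1.90 under NRF, and at ZT24 they were 64.0, 120.4, 63.2 and 37.0 and 4.98, 4.63, 0.903 and 1.60. Every DRF liver was above every NRF liver at ZT0, ZT16, ZT20 and ZT24, and below every one at ZT4 and ZT8. The differences were 3.80 ± 0.50 (SE, adjusted p = 2.17e-07) at ZT20 and 4.21 ± 0.50 (SE, adjusted p = 2.24e-08) at ZT24. The ZT12 livers under NRF were split as for Mt1, with 64.0, 49.8, 5.31 and 8.69 in the same replicate order, and the difference there, -1.79 ± 0.50 (SE, adjusted p = 0.00982), passed with all libraries, but its adjusted p was 0.0947 without NRF replicate 1 and 0.0805 without NRF replicate 2. An antisense gene, Gm45774, covers 73.5% of the exon bases of Mt2, and whether counting used the strand is not given in the sources used here.

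The balance of the metallothionein pair shifted with time. The ratio of Mt2 to Mt1, each per kilobase, was 0.440 ± 0.0681 (SD, n = 4) in the DRF livers of ZT4 and 4.38 ± 0.868 in those of ZT20, with no overlap between these groups (0.357 to 0.517 against 3.61 to 5.19). Under NRF the ratio ran from 0.949 ± 0.987 at ZT0 to 2.65 ± 0.475 at ZT20. The NRF ZT0 livers read 2.43, 0.392, 0.501 and 0.473, and without replicate 1 their mean was 0.455 ± 0.0569, within the range of the DRF ZT4 livers. At NRF ZT24, the same clock time, the ratio was 1.73 ± 0.679. It ran there from 0.822 to 2.44, above the range of the DRF ZT4 livers. At the troughs both genes are low, and 476 recovered counts was the lowest value of Mt2. Recovered counts summed to more than the study's read depth, so this value is not a number of reads. Mt2 went from 47.8 ± 26.9 to 1.65 ± 0.481 scaled counts between ZT0 and ZT4 of DRF and was back at 7.26 ± 0.424 at ZT8, a shape that gave it the only 12-h component among the members under DRF (amplitude 1.13 log2 units, adjusted p = 0.00345).

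Tsc22d3 (ENSMUSG00000031431, chromosome X, 140539528 to 140600659) was high in the day under DRF and at night under NRF. At ZT4 it read 257, 204, 248 and 294 scaled counts under DRF and 116, 98.1, 95.1 and 76.5 under NRF. At ZT8 the values were 176, 224, 342 and 274 and 89.9, 86.9, 89.5 and 141. The ranges did not overlap at either time, and the log2 differences were 1.37 ± 0.23 (SE, adjusted p = 1.66e-05) and 1.3 ± 0.23 (SE, adjusted p = 7.41e-05). At ZT20 the order was reversed, with 85.2, 146, 193 and 138 under DRF and 224, 304, 339 and 315 under NRF, a difference of -1.11 ± 0.23 (SE, adjusted p = 5.14e-04). At ZT16 the difference was -0.50 ± 0.23 (SE, adjusted p = 0.152); DRF replicate 1 there, at 359.8, stood above its group, the others of which lay between 196 and 209, and without it the adjusted p was 0.0453. Its 24-h amplitude was smaller under DRF (0.41 ± 0.10 log2 units, SE) than under NRF (0.97 ± 0.10), a difference of -0.55 ± 0.14 that was described and not tested.

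Fkbp5 (ENSMUSG00000024222, chromosome 17, 28399094 to 28517527) differed at the end of the day. At ZT12 the NRF livers read 97.3, 67.9, 86.8 and 89.2 scaled counts and the DRF livers 31.0, 40.7, 14.8 and 51.1. The groups did not overlap and the log2 difference was -1.40 ± 0.44 (SE, adjusted p = 0.0219). The call was lost without DRF replicate 3 (adjusted p = 0.134) and without NRF replicate 1 (0.0555). At ZT16 the means were 77.8 ± 55.0 under DRF and 73.2 ± 46.2 under NRF and the spread was wide in both, from 36.8 to 158 and from 25.4 to 131. At ZT24 every DRF liver (45.5, 46.3, 51.0 and 35.1) was above every NRF liver (31.4, 8.98, 31.6 and 25.7), yet the difference, 0.97 ± 0.44 (SE, adjusted p = 0.15), did not pass the test over all genes.

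Zbtb16 (ENSMUSG00000066687, chromosome 9, 48654297 to 48836222) had its lowest values 4 h into the day under DRF. At ZT4 the DRF livers read 39.9, 46.9, 42.3 and 58.6 scaled counts against 254, 126, 152 and 159 under NRF, with no overlap and a log2 difference of -1.82 ± 0.42 (SE, adjusted p = 0.00119). At ZT16 the values were 685, 251, 305 and 367 under DRF and 169, 293, 120.0 and 90.9 under NRF, which overlapped, and the difference was 1.28 ± 0.42 (SE, adjusted p = 0.0329). That call ended in 5 of 8 removals of single libraries (DRF replicates 1 and 4, NRF replicates 1, 3 and 4), with adjusted p-values up to 0.151. At ZT8 the DRF values were 85.4, 129.9, 541 and 152, where replicate 3 stood apart, and the difference was 1.18 ± 0.42 (SE, adjusted p = 0.0583). Without DRF replicate 3 it was 0.64 (adjusted p = 0.414). Over the removals of single libraries the adjusted p ran from 0.0180, without DRF replicate 1, to that value, and it was 0.0354 with the low-value filter and 0.0484 with the length trend removed. From trough to peak the group mean went from 46.9 ± 8.30 to 402 ± 195 under DRF, a ratio of 8.58, and the highest NRF mean was 379 ± 104 at ZT12.

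Sgk1 (ENSMUSG00000019970, chromosome 10, 21882184 to 21999903), which encodes a kinase acting on ion transport and insulin signalling, differed between regimens at 1 time. At ZT0 the values were 27.3, 37.7, 38.4 and 40.4 scaled counts under DRF and 22.3, 24.5, 22.3 and 24.5 under NRF. The groups did not overlap and the log2 difference was 0.58 ± 0.15 (SE, adjusted p = 0.00372). At ZT24, the same clock time, the values were 22.9, 20.5, 27.4 and 25.4 and 28.1, 24.7, 20.1 and 17.1, which overlapped, with a difference of 0.11 ± 0.15 (SE, adjusted p = 0.755). Its highest NRF mean was 34.2 ± 5.97 at ZT12, where the DRF mean was 31.5 ± 7.35, and its lowest DRF mean was 24.03 ± 2.98 at ZT24.

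Dusp1 (ENSMUSG00000024190, chromosome 17), whose product dephosphorylates MAP kinases, was higher under DRF at ZT4. The values were 146, 169.8, 138 and 158 scaled counts under DRF and 73.9, 72.0, 71.2 and 86.9 under NRF, with no overlap and a log2 difference of 1.0 ± 0.36 (SE, adjusted p = 0.0407). This call was lost without any 1 of the 8 libraries, with adjusted p-values of 0.0530 to 0.0890, and with the length trend removed (adjusted p = 0.0519). At ZT0 every DRF liver (207, 154, 179 and 160.2) was again above every NRF liver (65.9, 152, 113 and 81.5), with a difference of 0.82 ± 0.36 (SE, adjusted p = 0.123). The order was the opposite at ZT16, where every NRF liver (124, 152, 119 and 151) was above every DRF liver (117, 97.7, 101 and 114), and at ZT24, where the NRF livers read 74.4, 93.7, 69.0 and 73.4 and the DRF livers 52.1, 57.9, 54.6 and 67.8. The differences at these times, -0.33 ± 0.36 (SE, adjusted p = 0.604) and -0.41 ± 0.36 (SE, adjusted p = 0.561), did not pass. Their SE rests on the spread of all 14 groups. The SD over livers was 9.58 scaled counts at DRF ZT16 and 6.88 at DRF ZT24, but 96.9 at DRF ZT20. At ZT20 the livers were scattered in both regimens, from 59.6 to 273 under DRF and from 98.0 to 219 under NRF.

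The receptor gene Nr3c1 (ENSMUSG00000024431, chromosome 18) and Hsd11b1 (ENSMUSG00000016194, chromosome 1, 193221634 to 193264075) passed no test between regimens at any time. Nr3c1 group means lay between 296 ± 42.9 (ZT0) and 396 ± 12.5 (ZT16) under DRF and between 252 ± 88.4 (ZT0) and 425 ± 114 (ZT16) under NRF. At ZT12 every DRF liver (411, 361, 366 and 373) was above every NRF liver (319, 345, 217 and 269), but the log2 difference, 0.41 ± 0.23 (SE, adjusted p = 0.262), did not pass. Hsd11b1 group means lay between 76.8 ± 16.4 and 85.5 ± 16.9 under DRF and between 69.1 ± 8.85 and 79.9 ± 13.4 under NRF. Its differences ran from -0.015 at ZT16 to 0.23 at ZT8, each with an SE of 0.15. Its regimens overlapped at all 7 times.

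**Figure D2:**
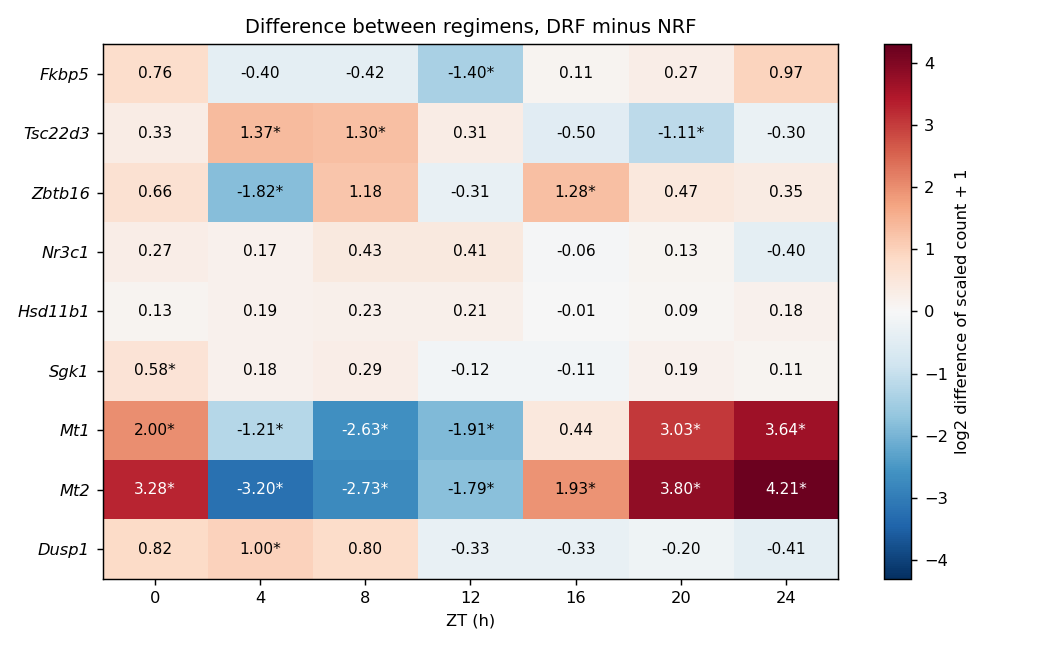
Difference between regimens, DRF minus NRF, in log2 of scaled count + 1 (color scale and printed values), for the 9 members (rows) at 7 times (columns, ZT in hours), where an asterisk marks an adjusted p under 0.05. Mt1 and Mt2 changed sign between day and night, and Nr3c1 and Hsd11b1 have no asterisk.

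The regimens were compared at each time to ask which members differed with the time of feeding. At ZT0, 3 of 9 members passed (Sgk1, Mt1 and Mt2, all higher under DRF), where 16.1% of all genes tested did. At ZT4, 5 passed (20.5% of all genes): Tsc22d3 and Dusp1 were higher under DRF and Zbtb16, Mt1 and Mt2 lower. At ZT8, 3 passed (13% of all genes), Tsc22d3 higher and Mt1 and Mt2 lower. At ZT12, 3 passed (15.2%), all lower under DRF (Fkbp5, Mt1 and Mt2). At ZT16, 2 passed (15.2%), Zbtb16 and Mt2, both higher. At ZT20, 3 passed (13.8%), Mt1 and Mt2 higher and Tsc22d3 lower. At ZT24, 2 passed (14.1%), Mt1 and Mt2, both higher. Over ZT0 to ZT20 jointly, 6 members differed at any time (41.9% of all genes), with adjusted p-values from 8.58e-13 for Mt2 to 0.0244 for Dusp1. The others were Fkbp5 (adjusted p = 0.0701, and 0.0430 among genes with a mean scaled count of at least 1, and called in 8 of 48 removals of single libraries), Nr3c1 (0.305) and Hsd11b1 (0.470).

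Rhythms were tested with a 24-h cosine curve in each regimen. Under DRF, 4 of 9 members were rhythmic (Tsc22d3, Zbtb16, Mt1 and Mt2), where 35.1% of all genes were. Under NRF, 6 were rhythmic (Fkbp5, Tsc22d3, Sgk1, Mt1, Mt2 and Dusp1; 43.8% of all genes). Any variation between ZT0 and ZT20 was called for 5 members under DRF (37.5% of all genes) and for 7 under NRF (42.3%); Sgk1 under DRF (adjusted p = 0.0114) and Zbtb16 under NRF (adjusted p = 3.26e-04) varied without a 24-h curve that passed. The rhythm itself differed between regimens for 5 members (38.9% of all genes): Mt1 (adjusted p = 3.08e-13), Mt2 (2.66e-12), Tsc22d3 (1.12e-09), Fkbp5 (0.00274) and Dusp1 (0.0488). The Dusp1 call was fragile: its adjusted p was above the threshold in 37 of 56 removals of single libraries (range 0.0152 to 0.0791) and without the ZT0 libraries (0.0658). For Zbtb16 (0.172), Sgk1 (0.137, and 0.0487 without DRF ZT12 replicate 3), Nr3c1 (0.309) and Hsd11b1 (0.620) no difference of rhythm was detected, so a rhythm called in 1 regimen alone does not show that the regimens differed.

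Several calls within a regimen turned on single libraries. The Sgk1 rhythm under NRF was lost without NRF ZT12 replicate 3 (adjusted p = 0.0588), as was its variation over time (0.0842), and the rank test called neither Sgk1 (0.133) nor Dusp1 (0.104) under NRF. Variation of Tsc22d3 under DRF was lost without DRF ZT20 replicate 1 (0.102), and that of Fkbp5 under NRF without NRF ZT0 replicate 2 (0.0801). Variation of Dusp1 under NRF was lost without NRF ZT8 replicate 1 (0.0792) or 2 (0.0895), or NRF ZT20 replicate 2 (0.0544) or 3 (0.0526). Conversely, Fkbp5 was rhythmic under DRF without DRF ZT20 replicate 2 (0.0253) and by the rank test (0.0444). The receptor gene Nr3c1 was near the threshold under NRF, where 9 removals of single libraries gave a rhythm and 10 gave variation over time.

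**Figure D3:**
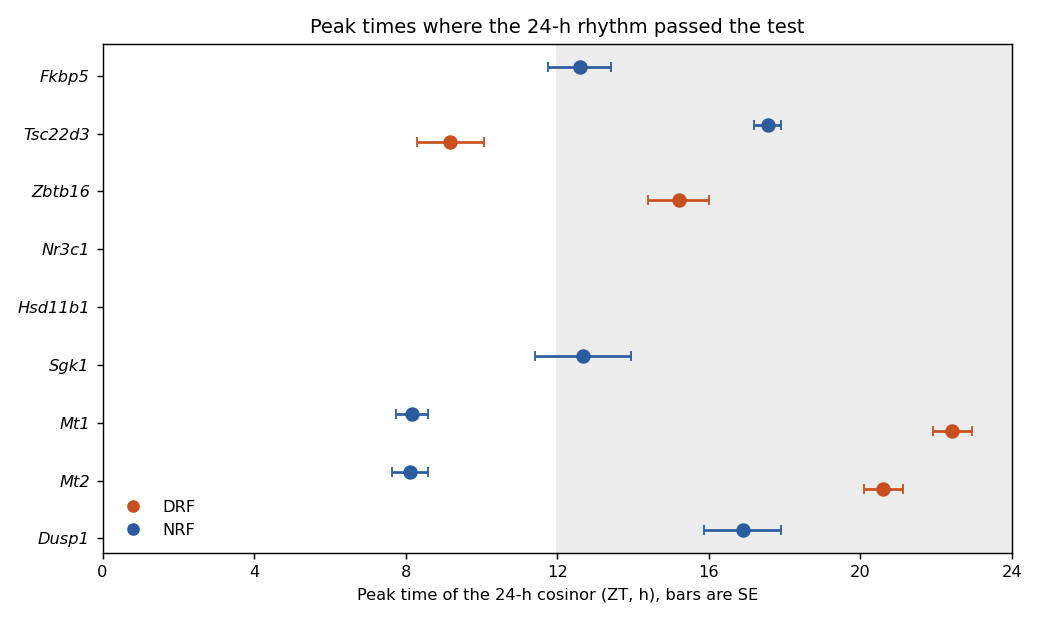
Peak times of the fitted 24-h curve (horizontal axis, ZT in hours, bars are SE) for members whose rhythm passed in DRF (orange) or NRF (blue); the dark phase is shaded. Mt1 and Mt2 peaked near ZT8 under NRF and after ZT20 under DRF, and Nr3c1 and Hsd11b1 have no point.

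Peak times showed how far each rhythm had moved. Mt1 peaked at ZT22.4 ± 0.519 h (SE) under DRF and ZT8.17 ± 0.414 h under NRF, a shift of 9.75 ± 0.664 h. Mt2 peaked at ZT20.6 ± 0.503 h and ZT8.11 ± 0.473 h, a shift of 11.5 ± 0.691 h. Tsc22d3 peaked at ZT9.18 ± 0.896 h and ZT17.6 ± 0.356 h, a shift of 8.38 ± 0.964 h. These 3 were the members rhythmic in both regimens, although with the values as deposited the rhythm of Tsc22d3 under DRF was not called (adjusted p = 0.0565), nor was its variation over time there (0.0571), and its shift was 7.00 h. The amplitudes of Mt1 were 1.52 ± 0.19 log2 units (SE) under DRF and 1.78 ± 0.20 under NRF, and those of Mt2 2.02 ± 0.27 and 2.11 ± 0.28. These sizes depend on the scale: with a pseudocount of 10 they were 0.99 and 1.03 for Mt1 and 1.29 and 1.22 for Mt2, and on log2 of the deposited values 0.57 and 0.72 for Mt1 and 0.84 and 0.89 for Mt2. The amplitudes of Tsc22d3 were 0.058 and 0.22 on the last scale. Under NRF alone, Fkbp5 peaked at ZT12.6 ± 0.839 h, Sgk1 at ZT12.7 ± 1.27 h and Dusp1 at ZT16.9 ± 1.01 h. Under DRF alone, Zbtb16 peaked at ZT15.2 ± 0.808 h.

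**Figure D4:**
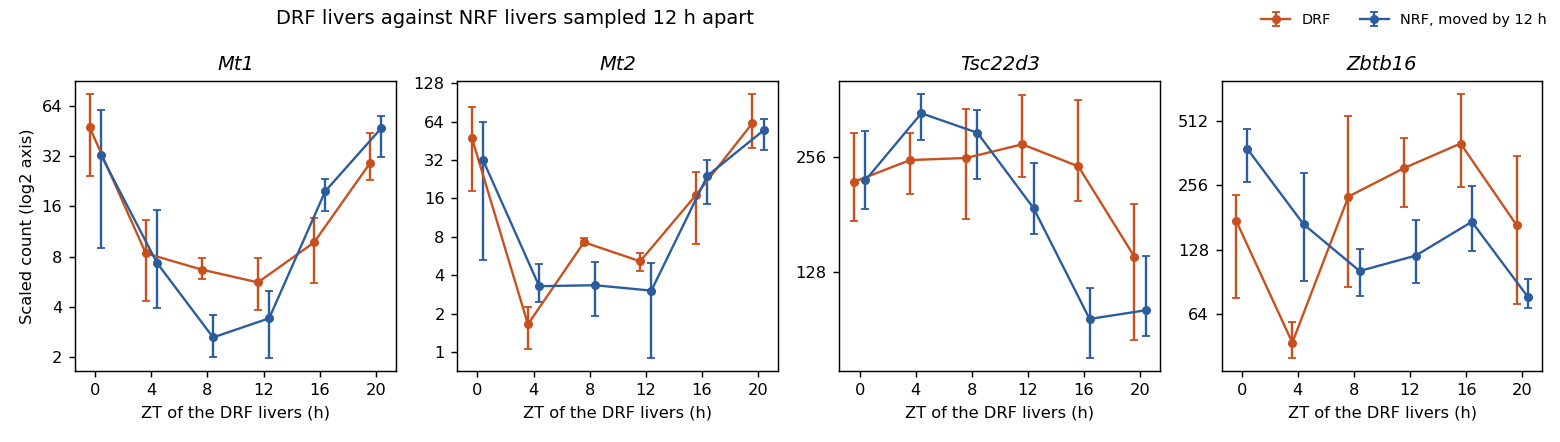
Group means of scaled counts (vertical axis, log2, bars from the lowest to the highest of 4 livers) at each DRF time (horizontal axis, ZT in hours), beside the NRF group sampled 12 h away (NRF ZT12 beside DRF ZT0, and so on), for Mt1, Mt2, Tsc22d3 and Zbtb16. Mean Zbtb16 under DRF is lower than its NRF partner at ZT0 and ZT4 and higher from ZT8 on, and the Mt1 livers are apart at DRF ZT8 and ZT16 only.

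Each DRF time was also set beside the NRF time 12 h away. Across the 6 pairs, 4 members still differed (Tsc22d3, Zbtb16, Sgk1 and Mt1), where 38.6% of all genes did. Zbtb16 differed most, with adjusted p = 7.84e-05: at DRF ZT4 its mean was 46.9 ± 8.30 scaled counts against 168 ± 89.4 at NRF ZT16, and at DRF ZT12 it was 309 ± 105 against 120.0 ± 38.8 at NRF ZT24. For Tsc22d3 (adjusted p = 2.28e-04) the widest gap was DRF ZT16 (241 ± 79.0) against NRF ZT4 (96.5 ± 16.3), with no overlap. For Mt1 (adjusted p = 0.0242, and 0.0679 with a pseudocount of 10) the livers were apart in 2 pairs that ran in opposite directions: DRF ZT8 (6.67 ± 0.979) lay above NRF ZT20 (2.61 ± 0.690), and DRF ZT16 (9.71 ± 4.38) lay below NRF ZT4 (19.7 ± 3.54). For Mt2 the joint test gave adjusted p = 0.116 (0.0237 without NRF ZT12 replicate 1, 0.0435 without NRF ZT12 replicate 2), and the 6 log2 differences had a root mean square of 0.75, against 2.88 when the regimens were compared at the same ZT. For Mt1 the same measures were 0.82 and 2.06, and for Zbtb16 1.21 and 1.09. These measures do not use the same NRF livers. The pairs 12 h apart used NRF ZT24, while the comparison at the same ZT used NRF ZT0 and left out ZT24. Mean Mt1 at DRF ZT12 (5.59 ± 1.74) lay above NRF ZT24 (3.41 ± 1.48) and below NRF ZT0 (12.1 ± 7.84). Sgk1 passed (adjusted p = 0.0366) with a root mean square of 0.26, but 9 of 48 removals of single libraries ended its call (DRF ZT8 replicates 1, 3 and 4, DRF ZT12 replicates 3 and 4, NRF ZT20 replicates 1 and 2, and NRF ZT24 replicates 3 and 4), with adjusted p-values of at most 0.0994. Fkbp5 (adjusted p = 0.0799) passed without DRF ZT12 replicate 3 (0.0414), DRF ZT16 replicate 2 (0.0483) or NRF ZT16 replicate 4 (0.0202), and Dusp1 (0.167) without DRF ZT20 replicate 1 (0.0457). With the values as deposited 8 members passed this test. The share of 38.6% holds for scaled counts, and that for the deposited values is not given here, so this rise is not read as a result about the members.

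The rhythm-adjusted mean, the level of the fitted curve over 24 h, was called by limma for 0 of 9 members, against 6.85% of all genes, and 2 members had an unadjusted p under 0.05. These were Hsd11b1, 0.15 ± 0.055 (SE, adjusted p = 0.104), and Tsc22d3, 0.23 ± 0.095 (SE, adjusted p = 0.151), both as log2 differences, DRF minus NRF; without NRF ZT8 replicate 3 Hsd11b1 passed (adjusted p = 0.0443). Fkbp5 gave -0.14 ± 0.16 (SE, adjusted p = 0.710) and Mt2 0.44 ± 0.27 (SE, adjusted p = 0.361). The median over the 9 members was 0.16, against -0.0017 over all genes. A 12-h component was found in 1 member under DRF (4.71% of all genes), Mt2, and in 0 under NRF by limma (2.02%), where 1 had an unadjusted p under 0.05, Zbtb16 (adjusted p = 0.131). The 12-h component differed between regimens for 0 members by limma (0.107% of all genes) with 1, Mt2, under an unadjusted p of 0.05 (adjusted p = 0.203).

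Livers taken at ZT0 and ZT24 share a clock time and were compared as a check on repeatability. The slope of library values on exon length differed between these groups. Its means at ZT0 and ZT24 were -0.021 and 0.036 under DRF and -0.042 and 0.041 under NRF. With this trend removed, each call of a member given below stood. Under DRF, 2 members differed (3.08% of all genes). Dusp1 read 207, 154, 179 and 160.2 scaled counts at ZT0 and 52.1, 57.9, 54.6 and 67.8 at ZT24, with no overlap and a log2 change of -1.57 ± 0.36 (SE, adjusted p = 0.0104). Sgk1 changed by -0.55 ± 0.15 (SE, adjusted p = 0.0278), a call lost in 5 of 8 removals (DRF ZT0 replicates 2, 3 and 4, DRF ZT24 replicates 1 and 2). Under NRF, 2 members differed (7.86% of all genes), Mt1 by -1.41 ± 0.44 (SE, adjusted p = 0.0389) and Nr3c1 by 0.72 ± 0.23 (SE, adjusted p = 0.0432). Nr3c1 read 217, 208, 385 and 200.2 at ZT0 and 443, 407, 389 and 369.6 at ZT24, which overlapped through NRF ZT0 replicate 3, and its call was lost in 7 of 8 removals, all but that of this library. The Mt1 call was lost without NRF ZT0 replicates 2 or 4 or NRF ZT24 replicates 3 or 4. The change from ZT0 to ZT24 differed between regimens for 0 members by limma (0.00395% of all genes); 4 had an unadjusted p under 0.05, and adjusted p-values were 0.754 for Dusp1, 0.776 for Sgk1, 0.705 for Mt1 and 0.807 for Nr3c1.

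Other genes of the pathway were counted from lists, beside the background of 38.9% of all genes with a rhythm that differed. Unless named otherwise, adjusted p-values of genes in these lists are those of the rhythm difference (limma). That test takes amplitude and peak time together, so it does not show that peak times differed. Among receptor partners, the chaperones and cofactors that hold or serve the receptor, 8 of 10 differed in rhythm. Fkbp4, an immunophilin that competes with Fkbp5 for the receptor complex, peaked at ZT8.40 under DRF and ZT19.8 under NRF (adjusted p = 8.72e-15). The co-chaperone gene Stip1 peaked at ZT7.26 and ZT19.4 (3.89e-08), and Hsp90ab1 at ZT7.31 and ZT18.7 (4.12e-08). Ptges3, which encodes the co-chaperone p23, differed in rhythm (5.07e-08). It was rhythmic under NRF (adjusted p = 4.33e-09, limma), with a peak at ZT19.2. The median difference of rhythm-adjusted means in this list was 0.036 log2 units, and 0 of 10 passed in either direction by limma.

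Among genes for steroid supply and clearance, 7 of 8 measured members differed in rhythm (Hsd11b2 was not analysed here). H6pd, which makes the cofactor for the Hsd11b1 enzyme, peaked at ZT17.0 under DRF and ZT4.20 under NRF (adjusted p = 9.80e-09). Serpina6, the corticosteroid-binding globulin of plasma, peaked at ZT7.27 and ZT14.1 (2.35e-07). The steroid reductase genes Srd5a2 (5.94e-07) and Akr1d1 (4.49e-04) peaked at ZT20.9 and ZT13.3 under DRF and at ZT7.05 and ZT17.6 under NRF. The rhythm-adjusted means of 2 members were higher under DRF and of 0 lower (6.85% of all genes passed in either direction): Akr1d1 by 0.29 ± 0.048 log2 units (SE, adjusted p = 2.83e-05) and Cyp3a11, named after its values were seen, by 0.30 ± 0.049 (1.72e-05).

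Of 20 other textbook targets, 17 differed in rhythm, 13 were rhythmic under DRF and 16 under NRF. Klf9, a transcription factor gene induced by the receptor, peaked at ZT18.3 under DRF and ZT8.29 under NRF (adjusted p = 4.08e-16). Cdkn1a, a cell cycle inhibitor gene, peaked at ZT12.0 and ZT23.3 (1.22e-14), and Pdk4, which restrains glucose oxidation, at ZT9.82 and ZT23.3 (8.75e-13). Angptl4, an inhibitor of lipoprotein lipase, peaked at ZT19.4 and ZT9.40 (1.80e-10). Within DRF alone these 4 peaks ran from ZT9.82 to ZT19.4. The median difference of rhythm-adjusted means was 0.18 log2 units. Higher means under DRF passed for 3 genes, named after their values were seen, and lower for 0: Pck1 by 0.56 ± 0.18 (SE, adjusted p = 0.0433), Sds by 0.52 ± 0.12 (0.00385) and Ddit4 by 0.31 ± 0.077 (0.00500).

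Genes for zinc and metal handling were set beside the metallothioneins, and 6 of 8 differed in rhythm. Slc30a10, a manganese exporter gene, peaked at ZT12.2 under DRF and ZT22.8 under NRF (adjusted p = 3.58e-17). Slc39a14, an importer of zinc, iron and manganese, peaked at ZT18.6 and ZT14.3 (0.00158). Slc30a1, a zinc exporter of the cell surface, peaked at ZT22.4 and ZT16.1 (0.00734), and Slc30a5 differed in rhythm (0.00652). Slc30a5 was rhythmic under NRF (adjusted p = 2.96e-05, limma), with a peak at ZT18.2. The median difference of rhythm-adjusted means was 0.041.

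Relatives of the members were counted in the same way. Of 6 SGK and TSC22 relatives with Fkbp4 among them, 5 differed in rhythm, of which 4 are named. Besides Fkbp4 these were Tsc22d4 (peaks at ZT0.461 under DRF and ZT7.08 under NRF, adjusted p = 2.59e-09), Sgk2 (ZT16.2 and ZT3.68, 1.40e-05) and Tsc22d1 (ZT4.56 and ZT0.131, 0.00448). Their peak times alone were not tested. Of 8 MAP kinase phosphatase genes other than Dusp1, 3 did: Dusp10 (adjusted p = 0.00171), Dusp8 (0.00416) and Dusp9 (0.0206), the last at a mean of 0.031 scaled counts and without a call once the length trend was removed (adjusted p = 0.766), without the ZT0 libraries (0.0834) or without NRF ZT8 replicate 2 (0.0549). Dusp5 gave 0.202. Of 9 measured immediate early genes (Fosb was not analysed here), 5 differed: Junb (adjusted p = 6.44e-08), Klf6 (3.15e-05), Atf3 (0.00107) and Zfp36 (0.0209, and 0.0546 without NRF ZT12 replicate 2 and 0.134 without the ZT0 libraries), besides Jun. Junb peaked at ZT21.0 under DRF and ZT7.86 under NRF. Median differences of rhythm-adjusted means in these lists were -0.015, -0.012 and -0.027 log2 units. Among the MAP kinase phosphatase genes, a lower rhythm-adjusted mean under DRF passed for 1 gene and a higher one for 0. The gene was Dusp5, named after its values were seen, with a log2 difference of -0.207 ± 0.065 (SE, adjusted p = 0.0407, limma). In the other 2 lists, 0 genes passed in either direction.

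The members did not share a single profile. Over the 14 group means, which share libraries within each group, Pearson's r was 0.91 between Mt1 and Mt2, 0.68 between Tsc22d3 and Dusp1, 0.54 between Fkbp5 and Zbtb16, -0.65 between Tsc22d3 and Mt2 and 0.07 between Fkbp5 and Tsc22d3. Nr3c1 correlated with Tsc22d3 at 0.54 and with Mt1 at -0.56. Among 13756 genes with a mean scaled count of at least 1, the profiles most like that of Mt2 were Gm45774, its antisense neighbour, with r = 0.983, and Crybg1 (0.971). For Mt1 they were Acp6 (0.959) and Gm45774 (0.949). Tsc22d3 was most like Thrsp (0.981), a gene of lipid synthesis, and Ces1d (0.957), a carboxylesterase gene. Nr3c1 was most like Ndufv2 (0.924) and Prepl (0.917), Fkbp5 like Art4 (0.907) and Rnf169 (0.881), and Zbtb16 like Lurap1l (0.868) and Clec1a (0.844). Dusp1 was most like Ak4 (0.853) and Foxred1 (0.796), and Sgk1 like 1700045H11Rik (0.864) and an assembled locus without a gene name (0.878).

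When the 14 groups were ranked by mean, most neighbours in the order overlapped. Ranking by mean puts close groups side by side, so such overlap is likely for any gene. It is given as a description, and the share over all genes was not computed. For Mt1, Fkbp5, Tsc22d3, Nr3c1, Hsd11b1 and Dusp1, all 13 neighbouring pairs overlapped in their livers. For Zbtb16, 12 pairs overlapped and NRF ZT8 lay above DRF ZT4, the lowest group. For Mt2, 12 overlapped and DRF ZT8 lay above DRF ZT12. For Sgk1, 12 overlapped and DRF ZT8 lay above DRF ZT20. The highest and lowest groups were DRF ZT24 and NRF ZT20 for Mt1, DRF ZT24 and DRF ZT4 for Mt2, NRF ZT16 and NRF ZT4 for Tsc22d3, NRF ZT12 and NRF ZT24 for Fkbp5, DRF ZT16 and DRF ZT4 for Zbtb16, and DRF ZT0 and DRF ZT24 for Dusp1.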

How the data were processed

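Liver RNA was prepared as strand-specific libraries after removal of ribosomal RNA, per the labels (the molecule field names polyA RNA). The submitters' processing notes name CASAVA 1.8, featureCounts 1.5.0-p3 and the builds mm10 and GRCm38.p6. The aligner, and whether counting used strand, are not given in the sources used here. The table deposited by the authors is headed TPM, but its values, treated here as a score, rise with the logarithm of the count per exon length. The curve was inverted per library, which gave whole counts within a tolerance of 0.1 for most genes. A wider tolerance of 0.2 served for 164 genes at their annotated length and 5 at a searched length. Values too large for the precision of the table were not judged. Fewer than 20 libraries could be judged for 116 genes, which kept their annotated length without this check. Of 25415 genes listed, 25306 were tested. The low-value minimum, a mean deposited value of 0.1, removed 0 genes. Recovered counts summed to more than the study's read depth, so they are not called reads and no counting interval is given. Of 24268 Ensembl identifiers, 24247 matched the annotation.

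Scaled counts were analysed with limma 3.58.1 in R 4.3.3 on log2(scaled count + 1), with a mean-variance trend and Benjamini-Hochberg adjustment. Group means gave the comparisons at each time, and cosine curves gave rhythms, peak times and rhythm-adjusted means. Tests of the difference between regimens in the change from ZT0 to ZT24 and in the 12-h component were added after the results were seen. The scripts were tested on simulated data. Each group held 4 animals. Same-numbered animals were different animals, and the median correlation of same-numbered deviations lay between -0.011 and 0.014, so numbers were not used as pairs. The members and the pathway and marker lists were chosen with earlier results of these data known. From each pathway list at most 4 genes with the smallest adjusted p for the rhythm difference were named. Alternatives were other pseudocounts, a filter, another scaling, removal of the trend with exon length, the deposited values, a replicate block, omission of ZT0 or ZT24, rank tests and omission of each library. The genes with profiles most like that of Hsd11b1 are not reported here.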

Additional observations from a re-analysis of the deposited data

Results flagged for a closer look

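In 11 of 126 member groups of 4 livers, a single liver stood farther from the others than the 95% limit of Dixon's test allows. That limit flags about 1 in 20 groups of normally distributed values. It was applied here to scaled counts without a log, and no rate over all genes was computed. The count of 11 is therefore not read as an excess. For Tsc22d3 the livers were DRF ZT16 replicate 1 (359.8 scaled counts), NRF ZT0 replicate 3 (203) and NRF ZT8 replicate 4 (141), all high. For Zbtb16, DRF ZT8 replicate 3 was high (541). For Nr3c1, DRF ZT0 replicate 1 (232) and DRF ZT4 replicate 1 (219) were low and NRF ZT0 replicate 3 (385) was high. For Hsd11b1, NRF ZT24 replicate 1 was high (84.3). For Mt1, DRF ZT20 replicate 3 (43.9) and NRF ZT16 replicate 3 (15.1) were high. For Dusp1, NRF ZT4 replicate 4 was high (86.9).

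The 24-h rhythm differed between regimens for 5 members by limma, with adjusted p-values of 0.00274 for Fkbp5, 1.12e-09 for Tsc22d3, 3.08e-13 for Mt1, 2.66e-12 for Mt2 and 0.0488 for Dusp1.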

How the results depend on the processing

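Of 63 called results of the members, 50 were called under every other setting, 48 with each library left out and 45 under both; no direction reversed. With the values as deposited, the members called were 1 at ZT12, 1 at ZT16, 8 for the comparison 12 h apart and 1 between ZT0 and ZT24 under DRF, and the Tsc22d3 shift was 7.00 h. The shares of all genes called with these values are not given here. With a pseudocount of 10, 1 member differed between ZT0 and ZT24 under NRF. Without the ZT24 libraries, 2 members had a 12-h component under DRF. The cause was not tested. Leaving out single libraries gave 3 to 4 members at ZT4, 1 to 3 at ZT12, 1 to 2 at ZT16, 1 to 2 between ZT0 and ZT24 under DRF, 0 to 2 under NRF and 0 to 1 for the rhythm-adjusted mean. The shares of all genes called under the other settings and removals are not given here either. These counts are therefore not read as results about the members.

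With the replicate number as a block, which the check of pairing did not call for, 4 members in place of 5 were called at ZT4, because Mt1 had an adjusted p of 0.0509 (limma); the other calls of members were not changed. The rank test used a normal approximation with 28 livers per regimen. The standard error of a log2 difference at a single time rests on 4 livers per group and 1 spread shared by all groups. Between members it ran from 0.15 for Sgk1 to 0.50 for Mt2, which limits the size of difference that could be detected.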
